A study of Mus musculus with 48 samples.

Results

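Transcripts of 9 complement components were followed in the mouse heart across a cardiomyopathy mutation and a drug treatment. The members were taken by gene symbol, as 9 of the 31920 genes in the ventricle tables: C1qa, C1qb, C1qc, C1ra, C2, C3, C4b, Cfb and C3ar1. All mice were of the FVB strain. PLNR9C is a mutation of phospholamban, the inhibitor of the calcium pump of the sarcoplasmic reticulum, that causes dilated cardiomyopathy. The labels do not say how the mutant line was made. JQ1, which displaces BET bromodomain proteins from acetylated chromatin, was dosed at 50 mg/kg, and control mice received vehicle. Bulk left ventricle represents an age before overt disease (8 weeks) and an age with it (20 weeks). The other material was a pool of isolated cardiomyocytes or of the remaining heart cells (non-myocytes) at 16 weeks, a diseased age by the labels, which do not state how many animals a pool holds. Each of the 4 sample types held wild type vehicle, wild type JQ1, PLNR9C vehicle and PLNR9C JQ1 groups of 3 libraries, which gave 16 groups and 48 libraries.

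Complement is a cascade of plasma proteins that marks targets for uptake and calls in inflammatory cells. In the classical pathway the C1q molecule, built from the A, B and C chains, binds its target and activates the proteases C1r and C1s, which cut C4 and C2 into the C3 convertase. In the alternative pathway factor B, the product of Cfb, forms a second convertase with C3b and so amplifies C3 cleavage, and the fragment C3a signals through the receptor encoded by C3ar1. The liver makes most circulating complement, whereas tissue macrophages are the main source of C1q, and fibroblasts can make C1r, C3, C4 and factor B.

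Reads in genes numbered 16984138 to 27086694 per library for 8 week ventricle and 18415351 to 26730918 for 20 week ventricle. They numbered 10249780 to 13146653 for cardiomyocyte libraries and 10041094 to 11815003 for non-myocyte libraries. All 9 members passed the filter on low counts in every sample type. The counts do not show the mutant allele, so the genotype labels were not checked from them. Hexim1, a gene known to rise under BET inhibition, was higher with JQ1 in each sample type, by 2.58 ± 0.07 (log2 fold change ± SE) in PLNR9C ventricle at 8 weeks and by 1.58 ± 0.15 in wild type cardiomyocytes. The fractions separated by their markers: 7 cardiomyocyte genes summed to 74413 to 83554 CPM (read counts scaled to library size) in wild type vehicle cardiomyocytes and 2393 to 3724 CPM in the matching non-myocytes. The cardiomyocyte fraction was not free of other cells, since 12 macrophage genes summed there to 40.1 to 50.9 CPM, against 1303 to 1418 CPM in non-myocytes. In these bulk samples more cells of a type and more RNA per cell cannot be told apart. Differences are given below as edgeR log2 fold changes with their standard error, and a gene passed with a Benjamini-Hochberg adjusted p under 0.05 over all genes tested. CPM were scaled within each sample type. Differences between sample types came from joint fits, so they do not equal ratios of the CPM.

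On GRCm38 the C1q genes lie side by side on the minus strand of chromosome 4, C1qb at 136880145 to 136886177, C1qc at 136889802 to 136892914 and C1qa at 136895916 to 136898844. C2 (34862602 to 34882100), Cfb (34856374 to 34862514) and C4b (34728381 to 34743897) lie together on the minus strand of chromosome 17, with C3 further along it at 57203973 to 57228136. C1ra is on the plus strand of chromosome 6 at 124512621 to 124523440, and C3ar1 on its minus strand at 122847140 to 122856157. C4b overlaps the table's gene model of its near-identical copy C4a, so the split of reads between them is uncertain, and C1ra has the close relative C1rb.

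RefSeq promoters on GRCm38.p6 were at hand for 5 of the 9 members (C1qb, C1qc, C1ra, C3 and C3ar1). The 250 bases before the start are shown for C1qb and C1qc, whose levels moved together, and for the component C3 and the receptor C3ar1. For C1qb the RefSeq start lies upstream of the gene model above, which starts at 136886177, so its promoter does not adjoin that model. Capitals mark matches to the motifs searched.
C1qb promoter, chr4:136886201-136886450, minus strand: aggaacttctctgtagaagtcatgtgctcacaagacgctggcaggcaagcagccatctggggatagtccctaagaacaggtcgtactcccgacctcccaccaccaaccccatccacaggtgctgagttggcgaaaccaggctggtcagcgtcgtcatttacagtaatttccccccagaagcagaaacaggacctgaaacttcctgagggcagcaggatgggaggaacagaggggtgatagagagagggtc
C1qc promoter, chr4:136892915-136893164, minus strand: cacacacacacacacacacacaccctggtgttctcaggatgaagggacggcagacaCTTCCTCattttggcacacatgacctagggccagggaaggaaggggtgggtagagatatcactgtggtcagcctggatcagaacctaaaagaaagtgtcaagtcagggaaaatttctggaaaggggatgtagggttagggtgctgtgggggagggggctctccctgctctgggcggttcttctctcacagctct
C3 promoter, chr17:57228137-57228386, minus strand: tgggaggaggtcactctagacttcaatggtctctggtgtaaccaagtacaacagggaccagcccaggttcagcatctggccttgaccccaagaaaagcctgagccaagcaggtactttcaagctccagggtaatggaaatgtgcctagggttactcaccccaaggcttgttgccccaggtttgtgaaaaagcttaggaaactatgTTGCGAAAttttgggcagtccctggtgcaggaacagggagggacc
C3ar1 promoter, chr6:122856158-122856407, minus strand: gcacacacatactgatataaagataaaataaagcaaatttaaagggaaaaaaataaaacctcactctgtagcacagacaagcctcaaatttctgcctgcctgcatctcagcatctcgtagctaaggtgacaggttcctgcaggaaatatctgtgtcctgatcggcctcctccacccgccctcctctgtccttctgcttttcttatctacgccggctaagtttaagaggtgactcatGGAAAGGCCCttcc
The motifs searched on both strands were the interferon gamma activated site, the interferon-stimulated response element, the NF-kB motif, GAGGAAG (PU.1, a myeloid factor) and the C/EBP motif. Among the 5 members, C1qc held 1 PU.1 match between 194 and 188 bases before its start, C3 held 1 C/EBP match 45 to 38 bases before its start, and C3ar1 held 1 NF-kB match 14 to 5 bases before its start. None of the 3 matches overlapped another motif. Of all 32851 promoters of this length, 10.6% held the PU.1 motif, 9.56% the C/EBP motif and 4.65% the NF-kB motif. The interferon gamma site and the interferon-stimulated element were in 7.02% and 2.98% of all promoters and in none of the 5. C1ra held no match, and neither did C1qb. A match is a run of letters only, and nothing was measured on binding to it.

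C3 was the most abundant member per length in every wild type vehicle sample type. Its mean RPKM (the deposited value, reads scaled to gene length and library total) was 22.2 ± 11.3 (SD, n = 3) in 8 week ventricle and 45.1 ± 10.2 in 20 week ventricle. It was 17.1 ± 1.8 in the cardiomyocyte fraction and 382 ± 26.4 in the non-myocyte fraction. C1qb followed, with 138 ± 26.6 RPKM in non-myocytes, and the other C1q chains were close to it, C1qc at 119 ± 20.2 and C1qa at 116 ± 14.1. C4b at 41.6 ± 9.0, C1ra at 24.4 ± 1.0 and C2 at 12.5 ± 0.9 came next, and C3ar1 at 10.8 ± 3.7 and Cfb at 7.58 ± 0.19 were the lowest there.

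All 9 members were higher in non-myocytes than in cardiomyocytes of wild type vehicle mice, a comparison in which 79.5% of the 15823 genes tested passed in either direction, 42.2% higher in non-myocytes and 37.3% lower. The median difference of the members was 3.98 on the log2 scale, against 0.13 over all genes tested. C1qc differed most, by 4.63 ± 0.32, and C1qb and C1qa by 4.41 ± 0.31 and 4.41 ± 0.27. The receptor C3ar1 was higher by 4.27 ± 0.37, C1ra by 3.98 ± 0.35, C4b by 3.80 ± 0.50 and C3 by 3.52 ± 0.35. C2 was higher too, at 30.9 ± 2.1 CPM in non-myocytes and 2.18 ± 0.37 CPM in cardiomyocytes. Cfb differed least, by 1.30 ± 0.29 in the joint fit of both fractions, with an adjusted p of 0.000395. Its CPM, scaled within each fraction, were 19.5 ± 0.5 in non-myocytes and 4.45 ± 0.82 in cardiomyocytes. The ratio of these CPM is wider than the fitted difference.

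**Figure D1:**
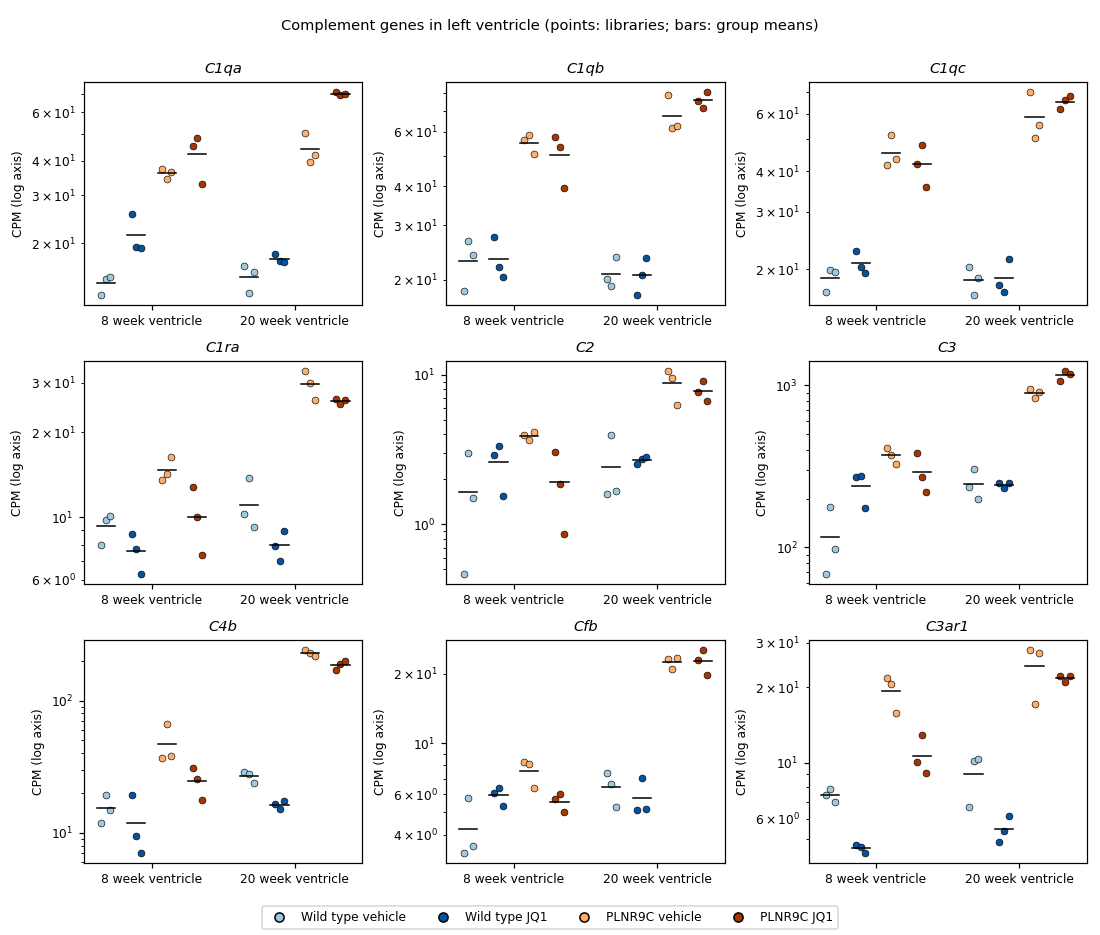
CPM (log axis) of the 9 members in left ventricle at 8 and 20 weeks, 1 panel per gene; points are libraries, bars are group means and colours are the 4 groups. At 20 weeks the PLNR9C libraries of every member lie above all wild type libraries.

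In 8 week ventricle, before overt disease, 8 of the 9 members were higher in PLNR9C than in wild type vehicle mice, where 14.4% of 15501 genes tested passed in either direction, 7.86% higher and 6.5% lower. The members' median difference was 1.27, against 0.01 for all genes tested, and the 3 and 3 libraries did not overlap for any of the 9. The share of all genes without such overlap was not counted. C1qa was at 13.03, 14.8 and 15.1 CPM in the wild type libraries and at 37.4, 34.4 and 36.3 CPM in the PLNR9C libraries. That is a rise of 1.33 ± 0.14 (adjusted p = 2.63e-05), or 2.51-fold, and C1qc (1.27 ± 0.11) and C1qb (1.25 ± 0.17) rose by nearly as much. C3ar1 rose by 1.38 ± 0.14, from 7.01 to 7.89 CPM in wild type to 15.8 to 21.6 CPM in PLNR9C. The 12 macrophage genes summed to 157 to 199 CPM in wild type and 334 to 370 CPM in PLNR9C libraries, and their part in the C1q and C3ar1 rise was not tested.

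C1ra (0.66 ± 0.16), Cfb (0.83 ± 0.18), C4b (1.60 ± 0.40) and C3 (1.68 ± 0.37) also rose at 8 weeks. C2, which supplies the protease of the classical C3 convertase, was at 0.47, 2.98 and 1.49 CPM in wild type and 3.96, 3.65 and 4.15 CPM in PLNR9C, a difference of 1.18 ± 0.52 that did not pass (adjusted p = 0.175). C3 varied among the wild type libraries, at 68.9, 178 and 98.3 CPM, against 408, 372 and 329 CPM in PLNR9C. The same wild type libraries held the mesothelial gene Upk3b at 0.18, 10.5 and 1.29 CPM and Msln at 0, 5.92 and 1.09 CPM. PLNR9C vehicle libraries held Upk3b at 17.3, 8.97 and 9.68 CPM and Msln at 8.69, 4.76 and 5.53 CPM. Among these vehicle libraries Upk3b and Msln, markers of the heart's outer surface, were lowest where C3 was lowest. The sum of 6 mesothelial genes overlapped, at 5.46 to 25.9 CPM in wild type and 21.1 to 36.1 CPM in PLNR9C. Of the 5 tested, 0 passed. With JQ1 at 8 weeks the same sum was 11.2 to 18.0 CPM in PLNR9C and 21.5 to 43.2 CPM in wild type. C3 was at 220 to 383 and 174 to 274 CPM there. In vehicle non-myocytes the sum was 147 to 165 CPM in PLNR9C and 186 to 270 CPM in wild type, and C3 was higher in PLNR9C. The part of these markers in the C3 rise was not tested. Without wild type vehicle replicate 1 the count fell from 8 to 5, with C1ra (0.56, adjusted p = 0.0696), C3 (1.42, 0.0551) and C4b (1.45, 0.125) lost. C3 also missed the threshold without PLNR9C vehicle replicate 1 or 2 or wild type replicate 3 (adjusted p = 0.0541 to 0.064) and in a fit of only these 6 libraries (0.067), C4b missed it without PLNR9C replicate 2 or wild type replicate 2 or 3 (0.0586 to 0.11), and C2 passed without wild type replicate 2 (1.95, adjusted p = 0.0294).

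In 20 week ventricle all 9 members rose in PLNR9C vehicle mice, and no PLNR9C library overlapped a wild type library for any of them. The share of all genes without overlap was not counted here either. In this comparison 44.7% of the 15971 genes tested passed in either direction, 23.3% higher and 21.4% lower, and the median difference was 1.69 for the members and 0.01 for all genes. C4b, the classical pathway's C4, was at 29.0, 27.7 and 23.98 CPM in wild type and 241, 228 and 215 CPM in PLNR9C. It rose by 3.08 ± 0.09, or 8.47-fold (adjusted p = 1.11e-13), more than any other member. C3 was at 234, 306 and 198 CPM in wild type and 954, 839 and 905 CPM in PLNR9C, a rise of 1.87 ± 0.12 or 3.66-fold. C2 was at 1.60, 3.95 and 1.67 CPM in wild type and 10.6, 9.59 and 6.32 CPM in PLNR9C, and here it passed (1.87 ± 0.29, adjusted p = 7.68e-05).

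Factor B rose as well: Cfb was at 7.40, 6.62 and 5.27 CPM in wild type and 23.2, 21.1 and 23.5 CPM in PLNR9C (1.81 ± 0.15). The C1q chains rose by 1.54 ± 0.10 (C1qa), 1.69 ± 0.12 (C1qb) and 1.66 ± 0.12 (C1qc), C1ra by 1.42 ± 0.13 and C3ar1 by 1.42 ± 0.18. Macrophage genes summed to 383 to 507 CPM in PLNR9C and 189 to 230 CPM in wild type, and 8 fibroblast genes to 4212 to 4822 and 2057 to 2131 CPM. The 7 cardiomyocyte genes summed to 36005 to 41088 CPM in PLNR9C and 66684 to 77071 CPM in wild type. The part of these shifts in the members' rises was not tested.

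The genotype difference was larger at 20 than at 8 weeks for 3 of the 9 members, in a test where 15.5% of 16220 genes passed, 7.03% upward and 8.51% downward. C4b widened by 1.49 ± 0.40 (adjusted p = 0.0171), Cfb by 0.99 ± 0.24 (0.0047) and C1ra by 0.77 ± 0.22 (0.0192). The C1q chains and C3ar1 did not pass, with changes of 0.22 ± 0.18 (C1qa), 0.45 ± 0.21 (C1qb), 0.40 ± 0.17 (C1qc) and 0.05 ± 0.24 (C3ar1), and for C3 the change was 0.20 ± 0.39. The 8 fibroblast genes gave 6 passing upward in the same test, and the 12 macrophage genes gave none. All 3 calls rested on wild type vehicle replicate 2 at 8 weeks, the library high in C3 and Upk3b: without it none passed, with C4b at 1.28 (adjusted p = 0.0651), Cfb at 0.68 (0.0546) and C1ra at 0.73 (0.0508). C1ra was also lost without any of 5 other libraries (0.65 to 0.71, adjusted p = 0.0517 to 0.0594): PLNR9C replicate 1 at either age, wild type replicate 1 or 3 at 20 weeks, and wild type replicate 3 at 8 weeks.

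**Figure D2:**
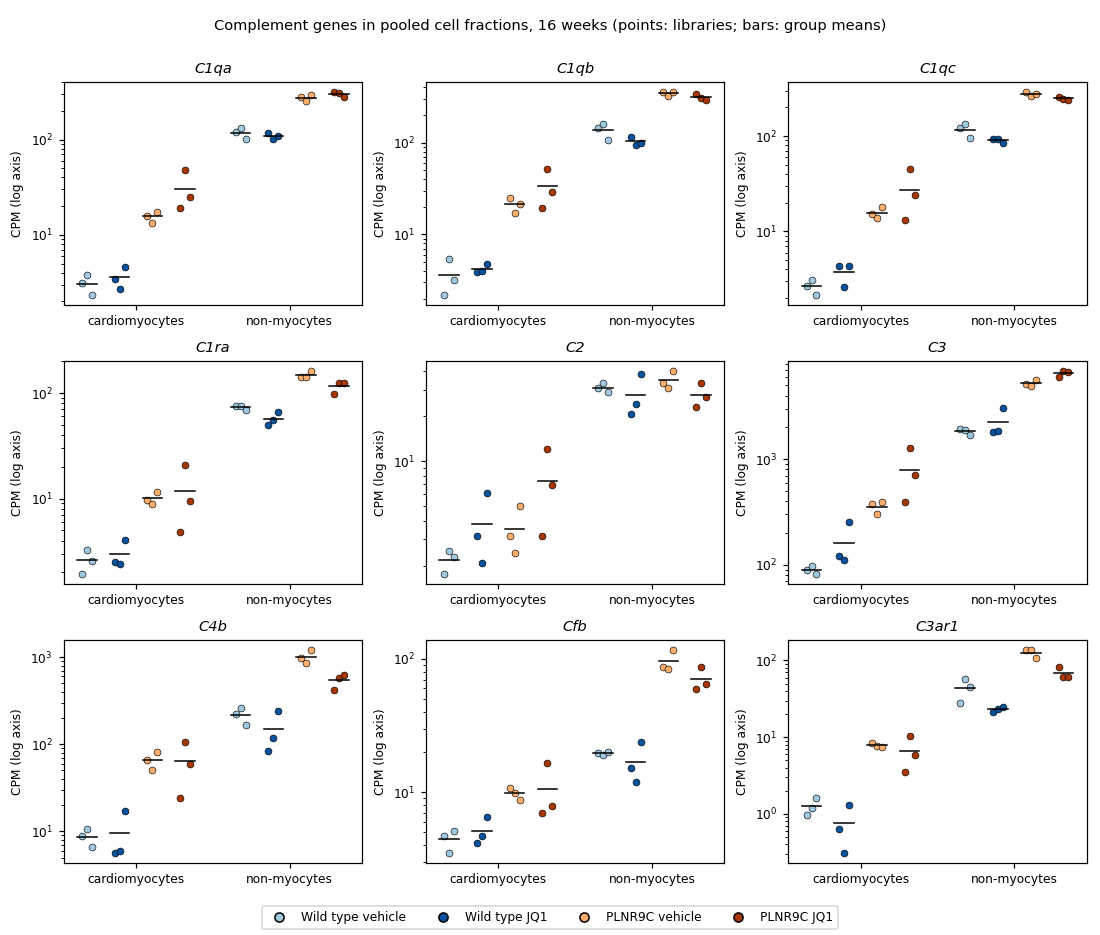
CPM (log axis) of the 9 members in pooled cardiomyocytes and non-myocytes at 16 weeks; points are libraries, bars are group means and colours are the 4 groups. PLNR9C vehicle libraries lie above wild type vehicle libraries in both fractions for every member except C2, and PLNR9C JQ1 cardiomyocytes are spread widely.

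In non-myocytes 8 of the 9 members rose in PLNR9C vehicle mice, where 18.6% of 15347 genes passed in either direction, 10.3% higher and 8.32% lower. Cfb was at 19.7, 19.0 and 19.9 CPM in wild type and 87.6, 83.9 and 117 CPM in PLNR9C, a rise of 2.30 ± 0.23 (adjusted p = 5.08e-05). C4b was at 223, 259 and 166 CPM in wild type and 968, 860 and 1209 CPM in PLNR9C (2.23 ± 0.36). C3 reached 5160, 4904 and 5600 CPM, against 1926, 1893 and 1687 CPM in wild type (1.51 ± 0.19). C3ar1 rose by 1.55 ± 0.21, the C1q chains by 1.23 ± 0.11 to 1.34 ± 0.13, and C1ra by 1.02 ± 0.12. C2 was at 30.6, 33.1 and 28.9 CPM in wild type and 33.02, 30.6 and 39.999 CPM in PLNR9C, with groups that overlapped and a difference of 0.16 ± 0.20 (95% interval -0.23 to 0.55). Macrophage genes summed to 2354 to 2494 CPM in PLNR9C and 1303 to 1418 CPM in wild type, and fibroblast genes to 19556 to 20500 and 17491 to 19271 CPM. The endothelial sum was lower in PLNR9C, at 2177 to 2977 against 3857 to 4792 CPM, as was the smooth muscle and pericyte sum, at 1168 to 1443 against 1770 to 2192 CPM, and neutrophil genes summed to 18.8 to 31.9 against 7.29 to 8.89 CPM. The part of these shifts in the rises was not tested.

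In the cardiomyocyte fraction 8 of the 9 members also rose in PLNR9C vehicle mice, where 26.1% of 14142 genes passed in either direction, 14.3% higher and 11.8% lower. C4b rose by 2.91 ± 0.54, from 8.77, 10.6 and 6.62 CPM to 65.7, 50.1 and 80.4 CPM. The C1q chains rose by 2.33 ± 0.34 (C1qa), 2.56 ± 0.37 (C1qb) and 2.55 ± 0.40 (C1qc), and C3ar1 by 2.63 ± 0.42. C3 (1.98 ± 0.40), C1ra (1.95 ± 0.46) and Cfb (1.14 ± 0.31) rose by less, and C2 did not pass (0.69 ± 0.51). The macrophage sum was 131 to 168 CPM in PLNR9C and 40.1 to 50.9 CPM in wild type cardiomyocytes, and the fibroblast sum 1048 to 1359 and 402 to 487 CPM, while the endothelial sum was lower, at 355 to 398 against 519 to 644 CPM. The smooth muscle and pericyte sum was higher, at 566 to 757 CPM in PLNR9C against 302 to 332 CPM in wild type. The part of these shifts in the rises was not tested. Cfb lost its call without wild type vehicle replicate 2 (1.00, adjusted p = 0.0672).

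The genotype difference in non-myocytes minus that in cardiomyocytes passed for no member in the edgeR fit that ignored replicate numbers, where 8.33% of 15823 genes passed. At an unadjusted p under 0.05 there were 5 members, and the share of all genes at that threshold was not counted. Same-numbered libraries of the fractions deviated together, and with the replicate number as a block 4 members passed. C1qa (-1.06, adjusted p = 0.0274), C1qb (-1.19, 0.0356) and C1qc (-1.26, 0.0413) then had a smaller genotype difference in non-myocytes, and Cfb a larger one (1.18, 0.00623). DESeq2 without the block also called these 4, with adjusted p between 0.0202 and 0.0274. The share of all genes passing with the block or in DESeq2 is not given here, so these counts have no background.

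**Figure D3:**
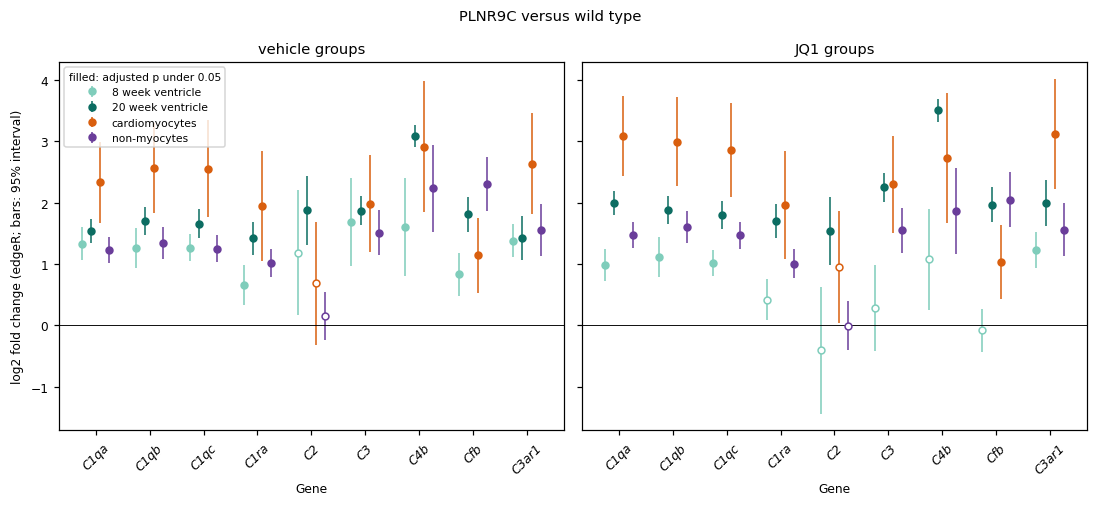
Log2 fold change of PLNR9C against wild type for each member under vehicle (left) and JQ1 (right) in the 4 sample types; bars are 95% intervals and filled points passed the test. C4b at 20 weeks is the highest of the vehicle points (3.08), and under JQ1 at 8 weeks only the C1q chains and C3ar1 are filled.

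Among JQ1-treated mice the genotype difference was called for 4 of 9 members at 8 weeks, the C1q chains and C3ar1, where 5.96% of genes passed, 3.43% higher and 2.54% lower. C3ar1 differed by 1.23 ± 0.15, C1qb by 1.12 ± 0.17, C1qc by 1.01 ± 0.11 and C1qa by 0.98 ± 0.13, whereas C3 (0.29 ± 0.36), Cfb (-0.08 ± 0.18) and C2 (-0.40 ± 0.53) had intervals that included 0. C4b differed by 1.08 ± 0.42 and C1ra by 0.42 ± 0.17 without passing (adjusted p = 0.205 and 0.173), each with an unadjusted p under 0.05. At 20 weeks all 9 members were called higher (39.1% of genes passed, 20.8% higher and 18.3% lower), C4b again by the most (3.50 ± 0.09), with C3 at 2.25 ± 0.12 and C1qa at 2.00 ± 0.10. In cardiomyocytes 8 of 9 were called higher (25.9% of genes passed, 13.6% higher and 12.3% lower), from Cfb at 1.04 ± 0.31 to C3ar1 at 3.12 ± 0.46. In non-myocytes 8 of 9 were called higher as well (18.6% of genes passed, 9.24% higher and 9.38% lower), with Cfb at 2.04 ± 0.23 and C2 at -0.01 ± 0.20. Cfb in cardiomyocytes missed the threshold without PLNR9C JQ1 replicate 2 (0.56, adjusted p = 0.115) or without wild type JQ1 replicate 1 or 2 (0.0942 and 0.0824), and in a fit of only these 6 libraries (0.0762). At 8 weeks C1ra passed without PLNR9C JQ1 replicate 3 (0.59, 0.038), and in cardiomyocytes C2 passed without PLNR9C JQ1 replicate 1 (1.33, 0.0233).

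In single comparisons of JQ1 with vehicle between 0 and 4 of the 9 members were called, where 3.63% to 38.0% of all genes passed, and the counts are given as a description beside that background. Over 8 comparisons of JQ1 with vehicle (each genotype in each sample type), C3ar1 fell in 5, C1ra in 4 and C4b in 2. C1qa rose in 2 and C3 in 1, C1qb and C1qc each fell in 1, and C2 and Cfb passed in none of the 8. The share of all genes passing in as many of the 8 was not counted, so this tally has no background. The comparisons within a genotype and those between genotypes share libraries, so their values are set side by side only.

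**Figure D4:**
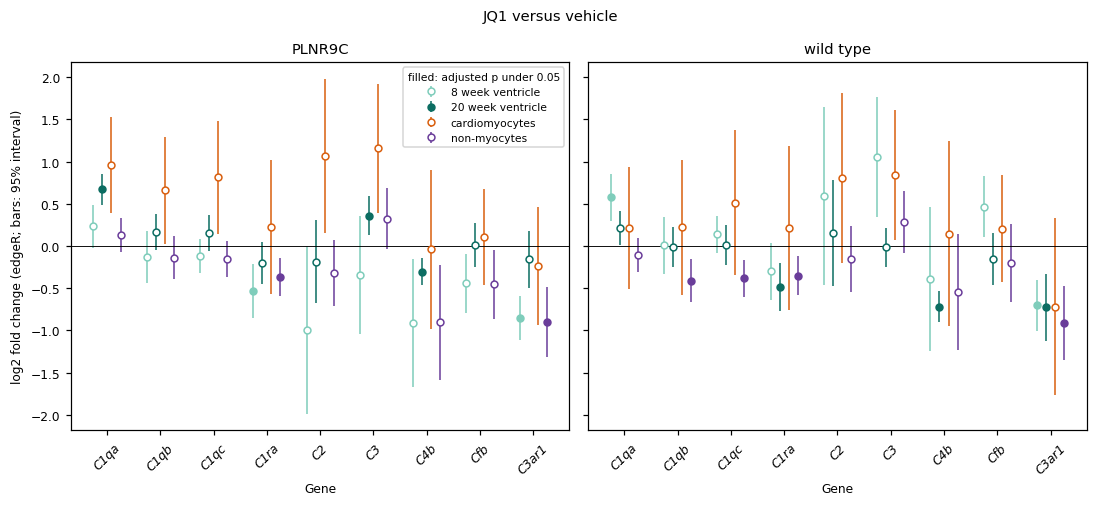
Log2 fold change of JQ1 against vehicle for each member in PLNR9C (left) and wild type (right) mice in the 4 sample types; bars are 95% intervals and filled points passed the test. C3ar1 points are below 0 throughout, and C1qa is filled and positive in 20 week PLNR9C ventricle (0.67) and 8 week wild type ventricle (0.58).

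In 8 week PLNR9C ventricle 2 of 9 members fell with JQ1 (33.1% of genes passed, 15.5% upward and 17.7% downward). C3ar1 was at 21.6, 20.6 and 15.8 CPM with vehicle and 10.1, 12.9 and 9.09 CPM with JQ1, a fall of 0.85 on the log2 scale (SE 0.13, adjusted p = 7.97e-05). C1ra was at 13.6, 14.2 and 16.4 CPM with vehicle and 12.8, 10.1 and 7.36 CPM with JQ1 (-0.54 ± 0.16, adjusted p = 0.0171). C4b (-0.91 ± 0.39), Cfb (-0.44 ± 0.18) and C2 (-0.99 ± 0.51) did not pass although their libraries did not overlap. The C1q chains lay between -0.13 ± 0.16 (C1qb) and 0.23 ± 0.13 (C1qa), and macrophage genes summed to 236 to 329 CPM with JQ1 and 334 to 370 CPM with vehicle. C1ra lost its call without PLNR9C JQ1 replicate 2 or 3 or vehicle replicate 3 (adjusted p = 0.0518 to 0.0828), C1qa passed without JQ1 replicate 3 (0.38, 0.0142), and Cfb passed without vehicle replicate 3 (-0.55, 0.0387). With only these 6 libraries in the fit 4 members passed, C2 (adjusted p = 0.0318) and Cfb (0.0382) among them.

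In 8 week wild type ventricle C1qa rose and C3ar1 fell (29.8% of genes passed, 14.3% upward and 15.4% downward). C1qa was at 13.03, 14.8 and 15.1 CPM with vehicle and 25.7, 19.5 and 19.2 CPM with JQ1 (0.58 ± 0.14, adjusted p = 0.00654), with no overlap. C3ar1 was at 7.46, 7.89 and 7.01 CPM with vehicle and 4.73, 4.63 and 4.40 CPM with JQ1 (-0.70 ± 0.16, adjusted p = 0.00206), while the macrophage sums overlapped (163 to 199 CPM with JQ1, 157 to 199 CPM with vehicle). C3 was at 270, 274 and 174 CPM with JQ1, against 68.9, 178 and 98.3 CPM, and did not pass (1.05 ± 0.36, adjusted p = 0.0606). Upk3b was at 7.81, 20.3 and 10.98 CPM in those JQ1 libraries. Without wild type vehicle replicate 2 the count was 4 instead of 2, with C3 (1.52, adjusted p = 0.0112) and Cfb (0.77, 0.00471) called higher, and DESeq2 called C3 with all libraries (1.06, 0.0183).

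In 20 week PLNR9C ventricle 3 of 9 members were called with JQ1 (31.9% of genes passed, 15.9% upward and 16.1% downward): C1qa and C3 rose and C4b fell. C1qa was at 50.4, 39.6 and 41.9 CPM with vehicle and 71.2, 69.2 and 69.8 CPM with JQ1, a rise of 0.67 ± 0.09 or 1.59-fold (adjusted p = 5.36e-05). The neighbouring chains did not pass, C1qb at 0.17 ± 0.11 and C1qc at 0.15 ± 0.11. C3 was at 954, 839 and 905 CPM with vehicle and 1063, 1227 and 1176 CPM with JQ1 (0.36 ± 0.12, adjusted p = 0.0278), and C4b at 241, 228 and 215 and then 169, 188 and 198 CPM (-0.30 ± 0.08, adjusted p = 0.00929). C3ar1 overlapped between the groups (-0.15 ± 0.17). The C3 call was lost without PLNR9C JQ1 replicate 2 or 3 or vehicle replicate 2 or 3 (0.31 to 0.37, adjusted p = 0.0627 to 0.101), the C4b call without JQ1 replicate 1 (-0.24, 0.0581), and C1qc passed without vehicle replicate 1 (0.30, 0.0479).

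In 20 week wild type ventricle C4b, C3ar1 and C1ra fell with JQ1 (27.2% of genes passed, 12.3% upward and 14.9% downward). C4b was at 29.0, 27.7 and 23.98 CPM with vehicle and 16.5, 15.04 and 17.5 CPM with JQ1 (-0.72 ± 0.09, adjusted p = 2.5e-05). C3ar1 was at 6.67, 10.2 and 10.3 CPM and then 4.86, 5.35 and 6.15 CPM (-0.73 ± 0.20), and C1ra at 10.3, 13.8 and 9.23 CPM and then 7.91, 6.98 and 8.93 CPM (-0.49 ± 0.14). C3 stayed within the vehicle range, at 248, 233 and 248 CPM against 234, 306 and 198 CPM (-0.02 ± 0.12, 95% interval -0.25 to 0.21). Macrophage genes summed to 162 to 193 CPM with JQ1 and 189 to 230 CPM with vehicle. The count fell to 1 without wild type JQ1 replicate 2 or without vehicle replicate 2, C4b remaining, with C1ra at -0.39 and -0.29 (adjusted p = 0.0895 and 0.135) and C3ar1 at -0.71 and -0.62 (0.0566 and 0.0703). C1ra was also lost in a fit of only these 6 libraries (-0.48, 0.0652), and C3ar1 without JQ1 replicate 1 (-0.64, 0.07) or vehicle replicate 3 (-0.61, 0.0641).

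In PLNR9C non-myocytes C3ar1 and C1ra fell with JQ1 (36.2% of genes passed, 16.7% upward and 19.5% downward). C3ar1 was at 135, 137 and 109 CPM with vehicle and 82.6, 61.5 and 60.1 CPM with JQ1 (-0.90 ± 0.21, adjusted p = 0.00607). C1ra was at 142, 143 and 162 CPM and then 98.5, 124 and 123 CPM (-0.37 ± 0.11, adjusted p = 0.0226). C4b was at 968, 860 and 1209 CPM with vehicle and 414, 578 and 630 CPM with JQ1, groups that did not overlap, but it missed the threshold (-0.90 ± 0.35, adjusted p = 0.0648) and passed in a fit of these 6 libraries alone (-0.91, 0.00519). C3 was higher in all 3 JQ1 libraries without passing (0.32 ± 0.18), and the C1q chains lay between -0.15 ± 0.11 and 0.13 ± 0.10. Macrophage genes summed to 1927 to 2072 CPM with JQ1 and 2354 to 2494 CPM with vehicle, and fibroblast genes to 22484 to 29079 and 19556 to 20500 CPM. C1ra lost its call without JQ1 replicate 1 (-0.24, adjusted p = 0.126) or vehicle replicate 3 (-0.31, 0.073).

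In wild type non-myocytes 4 of 9 members fell with JQ1 (38.0% of genes passed, 18.0% upward and 20.0% downward): C3ar1, C1qb, C1qc and C1ra. C3ar1 was at 27.9, 57.1 and 45.03 CPM with vehicle and 21.4, 23.2 and 24.7 CPM with JQ1 (-0.91 ± 0.22, adjusted p = 0.00733). C1qb (-0.41 ± 0.13), C1qc (-0.38 ± 0.11) and C1ra (-0.35 ± 0.12) changed by less, and C1qa did not pass (-0.11 ± 0.11). Marker sums moved with these falls: the macrophage sum was 896 to 998 CPM against 1303 to 1418 CPM, and the cardiomyocyte sum 6125 to 7729 CPM against 2393 to 3724 CPM, and the part of either was not tested. Only the C3ar1 call held without vehicle replicate 1 or vehicle replicate 2, and without JQ1 replicate 2 the count was 2. C1qb was also lost without JQ1 replicate 3 (-0.37, adjusted p = 0.0874) and in a fit of these 6 libraries alone (-0.41, 0.0536), C1qc without JQ1 replicate 3 (-0.32, 0.0761), and C1ra without JQ1 replicate 1 (-0.25, 0.14). C4b was at 83.7, 117 and 243 CPM with JQ1 and 223, 259 and 166 CPM with vehicle, and without the high JQ1 replicate 3 it passed as lower (-1.10, 0.00615).

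In cardiomyocytes edgeR called no member with JQ1 in either genotype. In PLNR9C 10.5% of genes passed (6.14% upward and 4.33% downward). There 4 members had an unadjusted p under 0.05, a threshold at which all genes were not counted. DESeq2 called 1 member, C1qa (0.97, adjusted p = 0.0216). In wild type, where 3.63% of genes passed (1.7% upward and 1.93% downward), no member had an unadjusted p under 0.05 and DESeq2 called none. PLNR9C JQ1 replicate 2 stood apart, with C3 at 1285 CPM against 390 and 704 CPM in the other JQ1 libraries and 374, 302 and 391 CPM with vehicle. In the PLNR9C JQ1 group the fibroblast sum ranged from 1374 to 4134 CPM, the macrophage sum from 102 to 346 CPM and Upk3b from 13.8 to 59.3 CPM, with replicate 2 the highest in Upk3b. Without JQ1 replicate 1, the lowest in C3, 5 members passed as higher: C1qa (1.23), C1qb (0.95), C1qc (1.17), C2 (1.45) and C3 (1.505), with adjusted p from 0.00814 to 0.0402. The 10.5% of all genes is for the fit with all libraries. Without replicate 2 none passed, and C1ra was at -0.48.

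The response to JQ1 was not shown to differ between genotypes for any member. The interaction passed for 0 of 9 in all 4 sample types in edgeR and in DESeq2. At an unadjusted p under 0.05 there were 2 at 8 weeks (C3 and Cfb), 4 at 20 weeks (C1qa, C3, C4b and C3ar1) and none in either fraction. The share of all genes at an unadjusted p was not counted, for these tests or those below, so such counts have no background here. By adjusted p in edgeR 0.00645% of all genes passed the interaction at 8 weeks, 0.357% at 20 weeks and 0% in each fraction, so few genes of any kind passed. At 20 weeks the interaction was 0.46 ± 0.14 for C1qa (adjusted p = 0.202), 0.42 ± 0.12 for C4b (0.178) and 0.57 ± 0.27 for C3ar1 (0.481). At 8 weeks Cfb was at -0.91 ± 0.26 (0.829) and passed without wild type vehicle replicate 2 (-1.22, 0.0428). The JQ1 difference in PLNR9C at 20 weeks minus that at 8 weeks passed for no member in edgeR or DESeq2 (0.271% of genes passed), with 2 at an unadjusted p under 0.05, and was 0.68 ± 0.23 for C3ar1 (adjusted p = 0.269). In non-myocytes minus cardiomyocytes of PLNR9C mice it passed for no member in edgeR without a block or in DESeq2 (2.43% of genes passed in edgeR), with 5 at an unadjusted p under 0.05. With the replicate number as a block 1 member passed, C2 (-1.42, adjusted p = 0.019), and without PLNR9C JQ1 cardiomyocyte replicate 1 there were 6. The 2.43% of all genes, and their median of -0.17, are for edgeR with all libraries and no block.

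**Figure D5:**
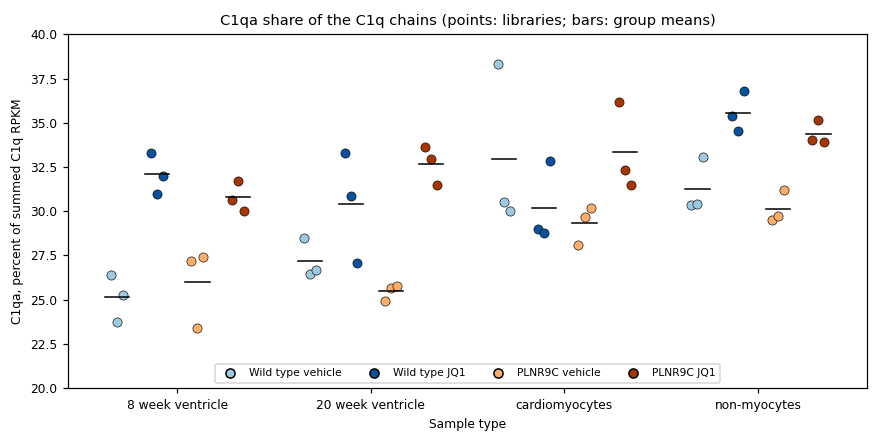
C1qa as a percentage of the summed RPKM of C1qa, C1qb and C1qc in each library, by sample type; points are libraries, bars are group means, colours are the 4 groups, and the axis starts at 20%. In ventricle and non-myocytes JQ1 groups sit higher than vehicle groups (for example 32.7% against 25.5% in PLNR9C at 20 weeks), and in cardiomyocytes the wild type groups are reversed.

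The C1q chains are assembled in equal numbers, and the balance of their transcripts is given here by treatment. This measure was chosen after the values of the single chains had been seen in the same libraries, so it is a description with no test. C1qa made up 26.4%, 23.8% and 25.2% of the summed C1q RPKM in 8 week wild type vehicle libraries and 33.3%, 31.0% and 32.0% with JQ1. In PLNR9C at 8 weeks it was 27.2%, 23.4% and 27.4% with vehicle and 30.7%, 31.7% and 30.0% with JQ1, again without overlap. The JQ1 minus vehicle difference, averaged over the genotypes, was 5.88 percentage points. At 20 weeks C1qa was 25.5% ± 0.5 (SD, n = 3) with vehicle and 32.7% ± 1.1 with JQ1 in PLNR9C, while wild type groups overlapped at 27.2% ± 1.1 and 30.4% ± 3.2. The averaged difference at 20 weeks was 5.21 points. In non-myocytes it was 4.27 points, from 30.1% to 34.4% in PLNR9C and from 31.3% to 35.6% in wild type. In cardiomyocytes the difference was 0.62 points, with PLNR9C at 29.3% and 33.3% and wild type at 33.0% and 30.2%. Leaving out each of the 12 libraries in turn gave 5.23 to 6.23 points at 8 weeks, 4.49 to 6.05 at 20 weeks, 3.96 to 4.72 in non-myocytes and -0.11 to 1.97 in cardiomyocytes.

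Relative to the macrophage genes, the summed C1q level also differed between groups. C1qa, C1qb and C1qc together were 0.36 to 0.39 of the 12-gene macrophage sum in PLNR9C vehicle non-myocytes and 0.23 to 0.30 of it in wild type vehicle non-myocytes. With JQ1 the ratio was 0.41 to 0.45 in PLNR9C and 0.29 to 0.37 in wild type non-myocytes, so the PLNR9C groups lay above wild type under each treatment. These ratios were not tested. The highest levels of C1qb were in non-myocytes, in the order PLNR9C vehicle, PLNR9C JQ1, wild type vehicle and wild type JQ1, with means of 346, 314, 137 and 103 CPM. PLNR9C vehicle and JQ1 libraries overlapped in that order, as did wild type vehicle and JQ1. C1qc had the same order, whereas for C1qa PLNR9C JQ1 non-myocytes (302 ± 18.8 CPM) came before PLNR9C vehicle (275 ± 20.7 CPM), with overlap. C3 also had PLNR9C JQ1 non-myocytes at the top (6534 ± 442 CPM) above PLNR9C vehicle (5221 ± 352 CPM) without overlap, then wild type JQ1 (2235 ± 699 CPM) and vehicle (1835 ± 129 CPM), which overlapped.

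Of 48 other complement genes, 33 to 35 passed the filter in ventricle, 31 in cardiomyocytes and 33 in non-myocytes. In 20 week ventricle 21 of 35 rose and 5 fell in PLNR9C vehicle mice (all genes 23.3% and 21.4%). C4a rose by 3.32 ± 0.09, Serping1, the inhibitor of C1r and C1s, by 1.67 ± 0.09, and C1s1 (C1s in the tables) by 1.22 ± 0.09. Cfi, whose product inactivates C3b and C4b, had 2, 1 and 3 reads in wild type and 152, 95 and 86 reads in PLNR9C (adjusted p = 5.05e-09). The C5a receptor C5ar1 (1.10 ± 0.13) and clusterin, Clu (0.38 ± 0.10), rose with them. At 8 weeks 12 of 33 rose and 2 fell (all genes 7.86% and 6.5%), with Itgb2 (1.39 ± 0.13), Itgax (2.24 ± 0.32) and Itgam (1.21 ± 0.18), the chains of complement receptors 3 and 4, among those with the smallest p. In cardiomyocytes 16 of 31 rose and none fell (all genes 14.3% and 11.8%). In non-myocytes 19 of 33 rose and 4 fell (all genes 10.3% and 8.32%), with Itgax at 3.63 ± 0.24, the terminal components C6 at 3.80 ± 0.28 and C7 at 1.69 ± 0.17, and vitronectin, Vtn, at -1.5048 ± 0.15.

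With JQ1 the other complement genes are given beside the shares of all genes that fell and rose. In PLNR9C ventricle 9 of 33 fell and none rose at 8 weeks (all genes 17.7% and 15.5%), and 7 of 35 fell and 5 rose at 20 weeks (16.1% and 15.9%). C5ar2 (Gpr77 in the tables), the second C5a receptor, fell in both, by 1.99 at 8 weeks (SE 0.25) and 1.46 at 20 weeks (SE 0.22). Cd93, an endothelial membrane protein once described as a C1q receptor, fell by 0.96 ± 0.10 at 8 weeks, and in wild type ventricle by 1.11 ± 0.10 at 8 weeks and 1.00 ± 0.20 at 20 weeks. C5ar1 went the other way in 20 week PLNR9C ventricle, from 26.2, 20.4 and 20.0 CPM to 30.7, 32.1 and 33.5 CPM (0.53 ± 0.12), and it fell in wild type (-0.48 ± 0.14), with an interaction of 1.01 ± 0.18 that passed (adjusted p = 0.0278). In PLNR9C non-myocytes 7 of 33 fell and 2 rose (all genes 19.5% and 16.7%), with C6 at -1.98 ± 0.24 and Masp1, a protease of the lectin pathway, at -1.57 ± 0.25. In wild type 5 of 33 fell and 4 rose at 8 weeks (all genes 15.4% and 14.3%), and 8 of 35 fell and none rose at 20 weeks (14.9% and 12.3%). In wild type non-myocytes 9 of 33 fell and 2 rose (20.0% and 18.0%). In PLNR9C cardiomyocytes 2 of 31 fell, Clu and Cpn2, and none rose (all genes 4.33% and 6.14%). In wild type cardiomyocytes no gene of the list passed (1.93% and 1.7%).

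Across the 16 group means, with each sample type centred on its own mean, C1qb and C1qc had a Pearson r of 0.999, and C1qa had 0.981 with C1qb and 0.984 with C1qc. The genes most like the mean of the C1q chains were Lyz2 (0.997), Laptm5 (0.991) and Tnfrsf1b (0.991), among 9455 candidates. C3ar1 was most like Pld4 (0.997), Ptprc (0.992) and Lcp1 (0.989), among 12816 candidates. C1ra was closest to C7 (0.992), C1s (0.992) and Tmed3 (0.99), and C3 to Srpx (0.978), Serping1 (0.977) and Aebp1 (0.976). C4b was closest to its copy C4a (0.999), Tmed3 (0.988) and Thbs4 (0.986), Cfb to AK219313 (0.984), Prg4 (0.975) and Pld3 (0.975), and C2 to Bst1 (0.948), Col6a5 (0.944) and Fras1 (0.941). These correlations share libraries and the group structure and are given as a description.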

How the data were processed

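Read counts per gene were deposited by the authors, named as reads per the file headers, for 48 libraries. The deposited normalized values were treated as RPKM, since they equal reads divided by gene length and by the table's total, and entered no count test. The submitters' processing notes name STAR 2.4.1b with GRCm38 and mm10, and no source used here names the counting tool, annotation or strand setting.

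Each sample type was fitted on its 12 libraries in edgeR 4.0.16 (R 4.3.3) with filterByExpr, TMM scaling, robust glmQLFit and glmQLFTest, adjusting by Benjamini-Hochberg over the 15501 (8 weeks), 15971 (20 weeks), 14142 (cardiomyocytes) or 15347 (non-myocytes) genes tested. Differences between ages or fractions came from joint fits. CPM used totals scaled by TMM within each sample type, and the standard error is the log2 fold change divided by the square root of F. The design text calls the 3 libraries of a group biological replicates, and p-values measure the spread between them. Same-numbered cardiomyocyte and non-myocyte libraries of a group deviated together (r 0.19 to 0.398 in 12 of 12 pairs, median 0.308, against -0.175 for other numbers), so the numbers pair the fractions and a replicate block was tried.

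The members and gene lists were chosen with earlier results of these data known. All members were named. Of 48 other complement genes, up to 6 passing genes of smallest p per comparison were eligible to be named, besides C5ar1, Serping1 and Clu, and 1 further gene of the rule is not reported here. Msln and Upk3b are the defining mesothelial markers. For the likeness of group means, log2 CPM used an offset of 0.5 and genes needed 1 CPM in every sample type (5 CPM for the C1q mean). Alternatives were RLE scaling, no filter, DESeq2 1.42.0, the block, fits of only the groups compared and leaving out each library. The scripts were tested on simulated data.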

Additional observations from a re-analysis of the deposited data

Results flagged for a closer look

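The genotype difference under vehicle was larger in 20 week than in 8 week ventricle for 3 members, by a test of the difference itself in edgeR with Benjamini-Hochberg adjustment. It widened by 1.49 ± 0.40 (log2, SE) for C4b (adjusted p = 0.0171), by 0.9856 ± 0.24 for Cfb (0.0047) and by 0.7663 ± 0.22 for C1ra (0.0192). None of the 3 passed without wild type vehicle replicate 2 at 8 weeks, where the changes were 1.28, 0.68 and 0.73.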

How the results depend on the processing

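Of 225 member log2 fold changes, 225 were kept under RLE scaling, 225 without the filter, 219 in DESeq2 and 218 with the replicate block. A value was kept if it was called in the same direction in both fits. A value called in neither was kept if its sign held or it moved by less than its standard error. Fits of only the groups compared covered fewer than the 225 values, since they were run only for direct comparisons of a group with another within a sample type. They kept 137, gained 3 calls and lost 4. No called value changed sign under any alternative run. For JQ1 in 8 week PLNR9C ventricle, fitting only the groups compared called 4 members instead of 2. For JQ1 in PLNR9C cardiomyocytes DESeq2 called 1 instead of 0. For the genotype effect in non-myocytes minus cardiomyocytes the replicate block called 4 and DESeq2 4 instead of 0, and for the JQ1 effect between fractions the replicate block called 1 instead of 0. The shares of all genes printed beside member counts come from edgeR with all libraries and no block. The cause of these changes in the member counts was not tested.

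Leaving out 1 library at a time, the members called for genotype under vehicle at 8 weeks ranged from 5 to 8. For JQ1 at 8 weeks they ranged from 1 to 2 in PLNR9C and 2 to 4 in wild type, and for the interaction from 0 to 1. At 20 weeks in wild type they ranged from 1 to 3. For JQ1 they ranged from 0 to 5 in PLNR9C cardiomyocytes, 1 to 2 in PLNR9C non-myocytes and 1 to 4 in wild type non-myocytes. They ranged from 0 to 3 for the age difference, 0 to 1 for the genotype effect between fractions and 0 to 6 for the JQ1 effect between fractions.

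Within sample types the replicate numbers did not pair the libraries (3 to 6 of 18 pairs over 0.1), and the replicate block there added calls for Cfb with JQ1 at 8 weeks in PLNR9C (-0.45, adjusted p = 0.0331) and wild type (0.49, 0.0321). Counts over all genes moved too. For JQ1 in PLNR9C cardiomyocytes 1480 genes passed, and 22 in a fit of only the groups compared and 643 to 2513 without 1 library. In wild type cardiomyocytes it was 513, against 847 in DESeq2, 1183 in a fit of only the groups compared and 109 to 276 without 1 library. The 20 week interaction gave 57, against 214 in DESeq2, 127 without the filter, 92 with the block and 8 to 87 without 1 library. The JQ1 effect between fractions gave 384, against 919 with the block, 621 in DESeq2 and 159 to 1804 without 1 library. The non-myocyte interaction gave 0, against 64 in DESeq2 and 0 to 225 without 1 library. The genotype difference under vehicle at 8 weeks gave 2226, against 1267 to 2088 without 1 library. With 3 libraries a group, C2, C3ar1, C1ra and the C1q chains in cardiomyocytes rested on few reads. In wild type vehicle libraries C3ar1 had 11, 14 and 17 reads, C2 20, 29 and 24, C1ra 22, 38 and 27, and the C1q chains 23 to 62.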

Other observations

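Of 36 other complement genes tested between the fractions of wild type vehicle mice, 27 were higher and 8 lower in non-myocytes (all genes 42.2% and 37.3%). The 8 were Masp1, Cfd, C8g, Clu, Cpn2, Cd59a, Cd59b and C1qbp, of which Masp1 and Clu were singled out after their values were seen. In wild type vehicle mice Masp1, a lectin pathway protease, was at 24.5, 19.9 and 23.9 CPM in cardiomyocytes and 4.52, 4.57 and 3.95 CPM in non-myocytes, lower by edgeR with an adjusted p of 7.72e-12 (-3.22 ± 0.21). Clu, the secreted chaperone clusterin, was at 469, 454 and 470 CPM in cardiomyocytes and 106, 133 and 89.9 CPM in non-myocytes (-2.92 ± 0.24). These CPM were scaled within each fraction, so their ratios are narrower than the differences of the joint fit. In PLNR9C non-myocytes Masp1 was at 23.5, 13.1 and 18.6 CPM with vehicle and 5.70, 5.37 and 7.59 CPM with JQ1, while PLNR9C cardiomyocytes held 32.9 to 34.7 CPM with vehicle and 27.8 to 31.5 CPM with JQ1. The JQ1 effect on Masp1 differed between the fractions (-1.46 ± 0.27, adjusted p = 0.00461).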
